A study of Homo sapiens with 6 samples.

Results

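CITED2, a feedback inhibitor of the hypoxia-inducible factors (HIFs), and 4 genes for jumonji-type oxygenases, KDM3A, KDM4B, KDM5B and RIOX1, were followed in Hep3B cells at 20% and at 1% oxygen. They were taken by symbol from the deposited table and make up 5 of its 2681 entries with values. Each symbol matched 1 entry. At 1% oxygen the transcripts of CITED2 and the 3 histone demethylases KDM3A, KDM5B and KDM4B were higher, 8.81-fold, 3.89-fold, 3.39-fold and 2.90-fold, and that of the ribosomal oxygenase RIOX1 was 4.33-fold lower (mean normalized counts, n = 3 libraries per group).

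Hep3B is an established line from a human liver cancer. According to the labels, 3 libraries came from cells kept at 20% oxygen for 24 hours (normoxia) and 3 from cells kept at 1% oxygen for 24 hours (hypoxia). All 6 carry the genotype WT and, in the treatment field, the words genetic modification, with no modification named, and the extraction text speaks of subclones. Messenger RNA was sequenced, and nothing in the labels says whether the libraries came from separate cultures, so the spread behind each p-value is that between these libraries and may be technical.

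In oxygenated cells, prolyl hydroxylases mark HIF alpha subunits for destruction and an asparaginyl hydroxylase, itself a jumonji protein, keeps them from binding the coactivators CBP and p300. When oxygen is low, HIF accumulates and switches on genes, among them CITED2, whose protein occupies the same domain of CBP and p300 as HIF and so limits its output. Jumonji enzymes use oxygen, iron and the metabolite 2-oxoglutarate. Most remove methyl groups from histone lysines, and a few hydroxylate other proteins. Several of the demethylase genes are known to be induced in low oxygen in other cells.

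HIF binds a short core motif, ACGTG or GCGTG, in DNA. The 250 bases before the outermost RefSeq start are shown for each gene with a RefSeq window. These are the genes that rose, so no window of the gene that fell is at hand for comparison. RefSeq windows (GRCh38.p14) matched 4 of the 5 genes. Each line below runs 5′ to 3′ on the gene's own strand, and capitals mark ACGTG or GCGTG on either strand. The windows are chr6:139374649-139374898 on the minus strand for CITED2, chr2:86441121-86441370 on the plus strand for KDM3A, chr19:4968863-4969112 on the plus strand for KDM4B and chr1:202808422-202808671 on the minus strand for KDM5B.
CITED2: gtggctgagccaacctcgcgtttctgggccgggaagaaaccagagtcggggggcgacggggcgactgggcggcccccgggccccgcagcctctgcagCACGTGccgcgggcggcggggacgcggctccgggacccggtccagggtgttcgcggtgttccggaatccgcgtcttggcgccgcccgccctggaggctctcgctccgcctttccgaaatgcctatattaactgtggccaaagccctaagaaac
KDM3A: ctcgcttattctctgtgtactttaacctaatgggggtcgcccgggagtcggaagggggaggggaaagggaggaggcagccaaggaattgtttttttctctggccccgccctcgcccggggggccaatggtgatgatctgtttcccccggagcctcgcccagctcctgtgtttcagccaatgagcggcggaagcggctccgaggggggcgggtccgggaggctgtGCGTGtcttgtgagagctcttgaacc
KDM4B: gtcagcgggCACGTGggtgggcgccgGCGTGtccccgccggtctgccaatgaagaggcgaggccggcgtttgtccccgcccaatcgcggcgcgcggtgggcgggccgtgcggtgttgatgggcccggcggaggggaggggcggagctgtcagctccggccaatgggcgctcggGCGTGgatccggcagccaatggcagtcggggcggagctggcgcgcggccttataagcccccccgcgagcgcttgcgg
KDM5B: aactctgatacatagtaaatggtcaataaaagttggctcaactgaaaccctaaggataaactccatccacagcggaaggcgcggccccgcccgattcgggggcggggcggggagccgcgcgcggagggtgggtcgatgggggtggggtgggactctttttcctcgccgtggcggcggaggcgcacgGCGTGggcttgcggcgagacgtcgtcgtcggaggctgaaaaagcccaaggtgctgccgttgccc

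CITED2 holds ACGTG on both strands inside a palindrome, from 153 to 148 bases before the start. KDM4B holds the same palindrome, from 241 to 236 bases before its start, and GCGTG at 224 to 220 and at 77 to 73 bases before it. KDM3A holds 1 GCGTG, 26 to 22 bases before its RefSeq start, and KDM5B 1 GCGTG, 64 to 60 bases before its RefSeq start. The starts depend on the annotation: GENCODE 29 begins KDM3A 724 and KDM5B 1049 bases farther upstream, so both of these windows lie inside the genes as GENCODE 29 draws them. Such letters are common: of 27305 genes with a RefSeq window of the same length, 18.6% hold ACGTG, 31.9% GCGTG and 43.1% at least 1 of them. The windows of CITED2 and KDM4B are 70% and 75.6% G or C, and those of KDM3A and KDM5B 62.4% and 64%. The matches describe the sequence and were not measured as bound sites. RIOX1 is the gene without a window.

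The deposited table is a selected one. Its largest false discovery rate is 0.00999 and its smallest absolute log2 fold change 1.00, so each entry had passed limits of 0.01 and 1 on these same 6 libraries. Of the 2681 entries, 2675 were tested, and 100% of them were called by the edgeR quasi-likelihood test at an adjusted p of 0.05, with 56.7% higher and 43.3% lower at 1% oxygen. Normalized counts did not overlap between the groups for 99.6% of entries. The 5 of 5 called genes, 4 higher and 1 lower, with 5 of 5 not overlapping, therefore stand at the background of this table, and the tests below describe size and spread and are no independent evidence of change.

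Counts over the listed entries summed to between 5474597 and 6128947 in the normoxia libraries and between 9905692 and 10134230 in the hypoxia libraries, which is not library depth. Relative library totals recovered from the ratio of count to FPKM lay between 0.920 and 1.04. The hepatocyte genes ALB and AFP were detected in each library, with 123 to 480 and 62 to 409 counts. Both were lower at 1% oxygen, ALB 2.44-fold and AFP 4.14-fold in mean normalized counts. Of 14 genes of the textbook oxygen response, 13 had an entry and 13 were higher at 1% oxygen, against 56.7% higher over the table. Their median log2 fold change was 3.28, against 1.11 over all entries. The list was chosen with earlier results of these data known, so this count is no independent check. No entry lies between about -1 and 1, so 1.11 depends on the split into higher and lower entries. The higher entries had a median of 1.61 and the lower ones of -1.36. ANGPTL4 was 95.6-fold, CA9 59.1-fold, NDRG1 40.5-fold and DDIT4 27.2-fold higher. CA9 shares 38.5% of its exon bases with ARHGEF39 and DDIT4 41.2% with DDIT4-AS1, both on the opposite strand. Normalized counts are counts divided by a library scale recovered from the authors' own fold changes.

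CITED2 (ENSG00000164442), on chromosome 6 from 139371807 to 139374620 on the minus strand in GENCODE 29 (GRCh38), rose the most. Its normalized counts were 1653, 1610 and 1728 in normoxia replicates 1 to 3 and 16211, 12752 and 15011 in hypoxia replicates 1 to 3. Every hypoxia library lay above every normoxia library by a wide margin, and hypoxia replicate 2 was the lowest of its group. The means were 1664 ± 59.8 and 14658 ± 1757 normalized counts (SD, n = 3 per group). The log2 fold change was 3.14 (SE 0.14; edgeR quasi-likelihood, Benjamini-Hochberg adjusted p = 4.21e-06), rank 170 among the 1518 entries higher at 1% oxygen, whose median was 1.61. The authors' own log2 fold change is 3.14, but the library scales were fitted to the authors' values, so this match is no independent check. In bulk RNA, a change in some of the cells and a change in each cell cannot be told apart.

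KDM3A (ENSG00000115548), which removes methyl groups from a repressive lysine mark on histone H3, lies on chromosome 2 from 86440647 to 86492716 on the plus strand. Its normalized counts were 711, 1087 and 1268 in normoxia replicates 1 to 3. They were 4331, 2745 and 4842 in hypoxia replicates 1 to 3. The groups did not overlap, and the spread in proportion to the mean was the widest of the 5 genes, with normoxia replicate 1 and hypoxia replicate 2 each the lowest of their group. The log2 fold change was 1.96 (SE 0.28; edgeR quasi-likelihood, adjusted p = 0.000326), with means of 1022 ± 284 and 3972 ± 1093 normalized counts (SD over 3 libraries each).

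KDM5B (ENSG00000117139) removes methyl groups from a lysine mark of active promoters on histone H3 and lies on chromosome 1 from 202724495 to 202809470 on the minus strand. Normalized counts were 568, 626 and 803 in normoxia replicates 1 to 3 and 2546, 1596 and 2625 in hypoxia replicates 1 to 3. As in KDM3A, normoxia replicate 1 and hypoxia replicate 2 were the lowest of their groups, and the groups did not overlap. The log2 fold change was 1.76 (SE 0.24; edgeR quasi-likelihood, adjusted p = 0.000233), with means of 666 ± 122 and 2256 ± 573 normalized counts (SD over 3 libraries each).

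KDM4B (ENSG00000127663), a demethylase of repressive and of transcription-linked marks on histone H3, lies on chromosome 19 from 4969113 to 5153595 on the plus strand. It was the tightest of the 3 demethylase genes, with 950, 1046 and 987 normalized counts in normoxia replicates 1 to 3 and 2961, 2622 and 3075 in hypoxia replicates 1 to 3. The libraries within each group lay close together and the groups far apart. The log2 fold change was 1.54 (SE 0.13; edgeR quasi-likelihood, adjusted p = 3.59e-05), with means of 994.5 ± 48.1 and 2886 ± 236 normalized counts (SD over 3 libraries each). This is the smallest rise of the 4, rank 825 of 1518 and below the median of the entries that were higher.

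RIOX1 (ENSG00000170468) encodes a nucleolar jumonji protein that hydroxylates a histidine of a large-subunit ribosomal protein, and lies on chromosome 14 from 73490964 to 73493392 on the plus strand. Its normalized counts were 641, 603 and 626 in normoxia replicates 1 to 3 and 166, 145 and 121 in hypoxia replicates 1 to 3. The 3 normoxia libraries were nearly level, and each hypoxia library lay far below them. RIOX1 fell by 2.11 on the log2 scale (SE 0.19; edgeR quasi-likelihood, adjusted p = 4.02e-05), with means of 623 ± 19.3 and 144 ± 22.3 normalized counts (SD over 3 libraries each). It ranked 134 among the 1157 entries lower at 1% oxygen, whose median log2 fold change was -1.36. The hypoxia values rest on 165, 122 and 121 reads.

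**Figure D1:**
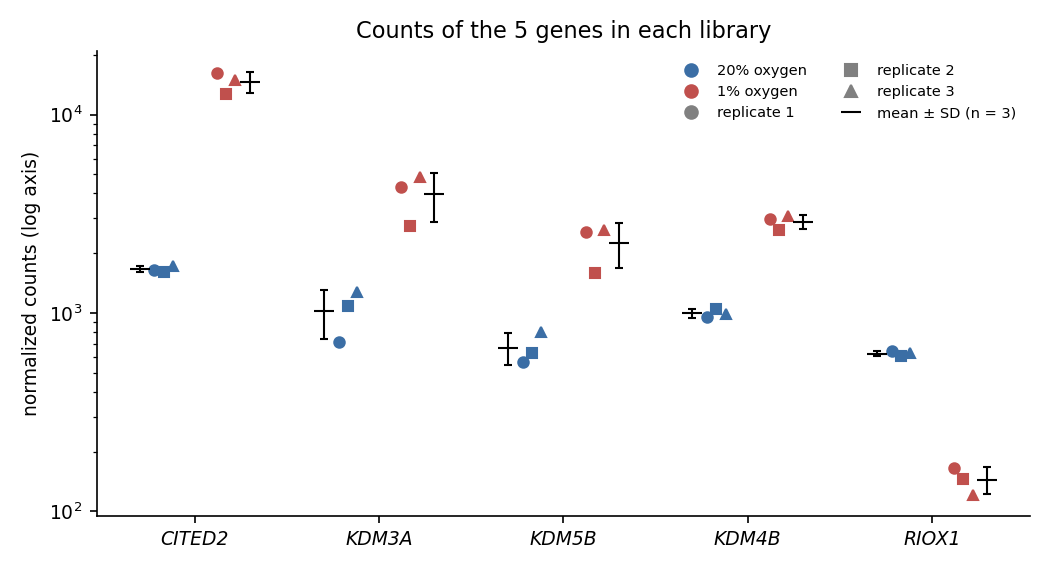
Normalized counts (log axis) of CITED2, KDM3A, KDM5B, KDM4B and RIOX1 in 3 libraries at 20% oxygen (blue) and 3 at 1% oxygen (red), with marker shape for the replicate number and black bars for mean ± SD. The red points of CITED2, KDM3A, KDM5B and KDM4B lie above the blue ones, those of RIOX1 lie below, and hypoxia replicate 2 is low in KDM3A and KDM5B.

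**Figure D2:**
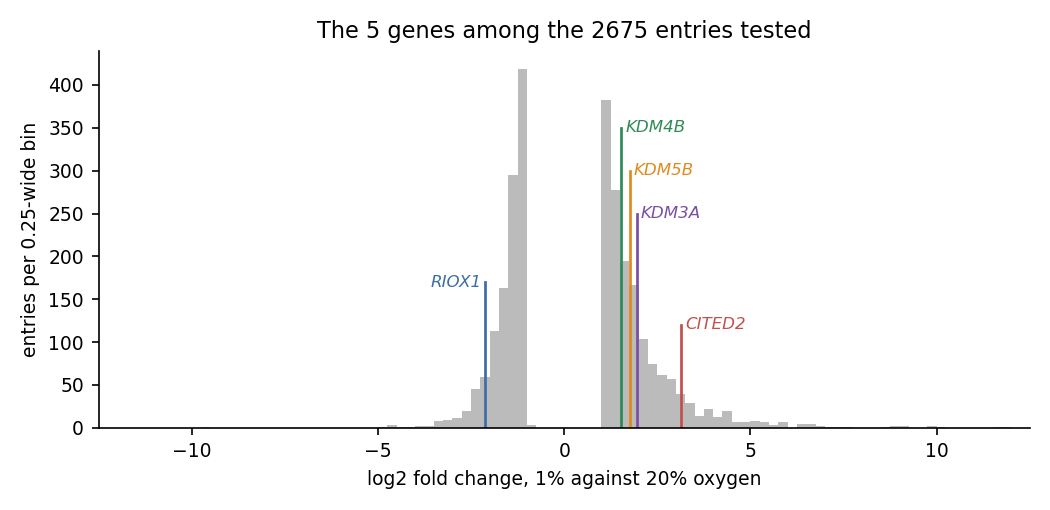
Number of entries in each 0.25-wide bin of log2 fold change (1% against 20% oxygen) over the 2675 entries tested, with vertical lines at the 5 genes, whose line heights carry no value. The gap between about -1 and 1 is the authors' limit on fold change, and CITED2 at 3.14 stands farther from it than KDM3A, KDM5B and KDM4B.

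The fold changes depend on how the libraries are scaled, and a scale set over a table of changed entries moves them all. Over the 2675 entries the median shift was -0.53 with edgeR's TMM, -0.78 with DESeq2 size factors and -0.27 with the library totals behind the FPKM values, all on the log2 scale. Under the DESeq2 size factors the split of called entries was 46.3% higher, against 56.7%. The directions of the 5 genes held under all 3, with log2 fold changes under the DESeq2 size factors of 2.36 for CITED2, 1.16 for KDM3A, 0.97 for KDM5B, 0.76 for KDM4B and -2.89 for RIOX1 (highest adjusted p of the 5 under that scale 0.00398, edgeR quasi-likelihood).

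Hypoxia replicate 2 stood apart from hypoxia replicates 1 and 3 for KDM3A and KDM5B, and it also differed over the listed entries as a whole. Chi-square per degree of freedom was 212 against hypoxia replicate 1 and 268 against hypoxia replicate 3, and 13.1 between those 2. Within normoxia the pairs of libraries gave 27.2 to 143. Against the mean of the other 2 hypoxia libraries, hypoxia replicate 2 was lower by a log2 difference of -0.74 in KDM3A and -0.70 in KDM5B, and by -0.29 in CITED2 and -0.20 in KDM4B. Over 1445 entries that were higher at 1% oxygen, with a mean of at least 50 normalized counts, the median of that difference was 0.16, and 5.40% and 6.57% of them were lower than KDM3A and KDM5B. Hypoxia replicate 2 was the lowest hypoxia library in 34.3% of those entries. That share and the median depend on the library scale, which is 0.844 for hypoxia replicate 2 and 0.994 and 0.997 for the other 2. With the totals behind the FPKM values as the scale, an alternative chosen after seeing the data, the share was 49.6% and the median -0.07, and the differences of KDM3A and KDM5B were -0.98 and -0.94, with 5.33% and 6.57% of the entries lower. Without it the log2 fold changes were 2.17 for KDM3A and 1.96 for KDM5B.

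Ratios between 2 of the genes within a library do not depend on its scale. The log2 ratio of CITED2 to KDM4B counts was 0.80, 0.62 and 0.81 in normoxia replicates 1 to 3 and 2.45, 2.28 and 2.29 in hypoxia replicates 1 to 3. CITED2 thus gained on KDM4B in each hypoxia library, by 1.60 on average (SE 0.08). It gained 1.17 (SE 0.29) on KDM3A and 1.39 (SE 0.19) on KDM5B, again with no overlap between the groups. Against RIOX1 the changes in log2 ratio were larger, 5.26 (SE 0.15) for CITED2, 4.08 (SE 0.41) for KDM3A, 3.87 (SE 0.32) for KDM5B and 3.66 (SE 0.18) for KDM4B. RIOX1 entered the table as lower and the other genes as higher, so large changes in these ratios follow from the selection.

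The 3 demethylase genes overlapped in their ratios to each other with all 6 libraries. The log2 ratio of KDM3A to KDM4B changed by 0.42 (SE 0.29), that of KDM3A to KDM5B by 0.22 (SE 0.14) and that of KDM4B to KDM5B by -0.21 (SE 0.22), and in all 3 pairs the normoxia and hypoxia libraries overlapped. Single libraries decide this: without hypoxia replicate 2, or without normoxia replicate 3, KDM3A to KDM4B (0.60 in both cases) and KDM4B to KDM5B (-0.37 and -0.35) no longer overlapped, and without normoxia replicate 2 KDM3A to KDM5B (0.32) did not. Over the 10 pairs, the two-sided exact permutation test with 3 against 3 libraries cannot go below p = 0.1. The 7 pairs without overlap reached that smallest value (adjusted p = 0.143, Benjamini-Hochberg over 10 pairs, exact permutation), and the 3 demethylase pairs gave exact permutation p = 0.2, 0.3 and 0.2. Those of the 7 with RIOX1 set a gene selected as lower against genes selected as higher. Their separation was thus largely fixed by the selection. The share of pairs without overlap over the whole table was not computed.

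**Figure D3:**
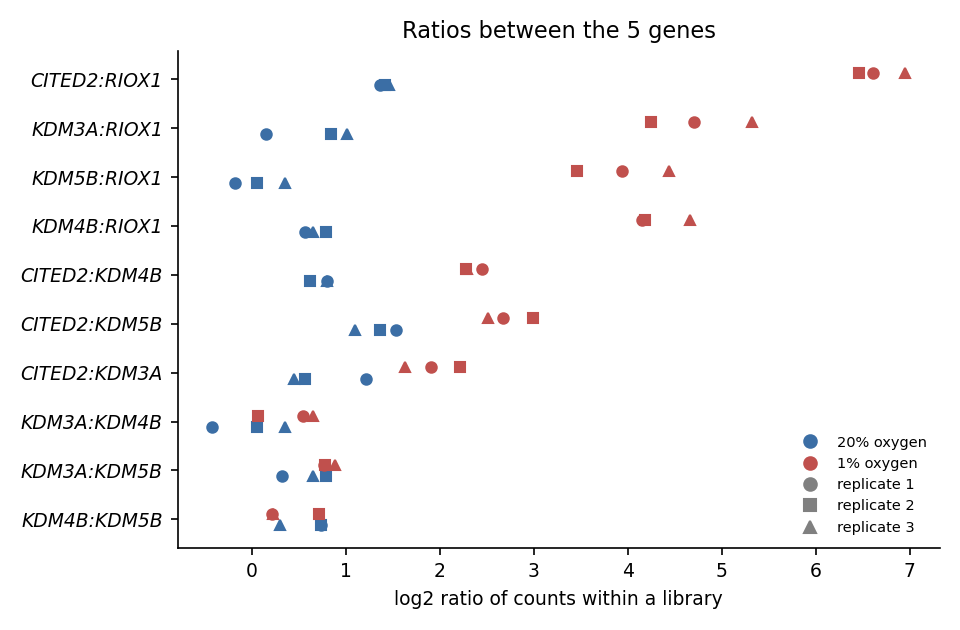
Log2 ratio of the counts of 2 genes within each library, for the 10 pairs of the 5 genes, at 20% oxygen (blue) and 1% oxygen (red), with marker shape for the replicate number. Red and blue are apart in the 7 pairs that include CITED2 or RIOX1 and overlap, with all 6 libraries, in the 3 pairs among KDM3A, KDM4B and KDM5B.

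FPKM, the authors' level per transcript length, allows the genes to be set in order. At 20% oxygen CITED2 was highest at 21.3 ± 2.05 FPKM (SD, n = 3), above RIOX1 at 7.71 ± 0.49, KDM3A at 6.29 ± 2.11, KDM4B at 5.32 ± 0.58 and KDM5B at 1.96 ± 0.49. The ranges of RIOX1 and KDM3A overlapped, as did those of KDM3A and KDM4B, so these neighbours did not differ beyond their spread. CITED2 lay above the others, and KDM5B below them, in every normoxia library.

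At 1% oxygen the order was CITED2 at 157 ± 31.5 FPKM, KDM3A at 19.6 ± 8.04, KDM4B at 13.0 ± 2.29, KDM5B at 6.85 ± 2.93 and RIOX1 at 1.47 ± 0.26 (SD, n = 3). The FPKM ranges of KDM3A and KDM4B overlapped, and the other neighbours did not. RIOX1 thus went from the second place to the last, from 7.34, 7.52 and 8.26 FPKM in normoxia replicates 1 to 3 to 1.77, 1.32 and 1.32 in hypoxia replicates 1 to 3. On the FPKM scale the mean of CITED2 was 7.37-fold higher at 1% oxygen, that of KDM5B 3.50-fold, that of KDM3A 3.11-fold and that of KDM4B 2.44-fold, and that of RIOX1 was 5.24-fold lower.

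**Figure D4:**
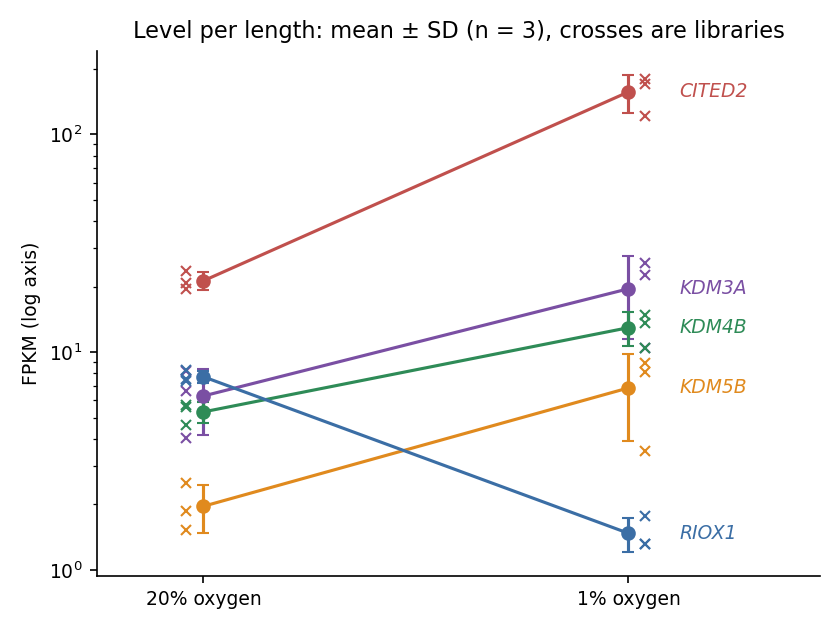
FPKM (log axis) at 20% and 1% oxygen for the 5 genes, with circles and bars for mean ± SD of 3 libraries and crosses for the libraries. CITED2 is highest at both oxygen levels, and RIOX1 crosses the 3 demethylase genes, from 7.71 to 1.47 FPKM.

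Reads per unit of FPKM, relative to the median entry of each library, show where counts and FPKM moved apart between libraries. For CITED2 and RIOX1 this log2 value stayed between -0.0045 and 0.0027 in all 6 libraries. In KDM5B it was 0.13, 0.12 and 0.13 in normoxia replicates 1 to 3 and -0.34, 0.11 and -0.14 in hypoxia replicates 1 to 3. Hypoxia replicates 1 and 3 thus carried fewer reads per FPKM, and the mean difference between hypoxia and normoxia was -0.25, against a 95th percentile of 0.17 for its absolute value over 1442 entries. In KDM3A hypoxia replicate 2 stood out, at 0.20 against -0.06 to -0.03 in the other libraries. In GENCODE 29 RIOX1 has 1 transcript, CITED2 4, KDM4B 12, KDM3A 16 and KDM5B 40, the coding ones of KDM5B running from 571 to 10341 nucleotides. No source used here says how the authors combined transcripts, and the part of transcript choice in these values was not tested. No exon base of CITED2, KDM3A, KDM4B or KDM5B is shared with another GENCODE 29 gene, and 3.46% of those of RIOX1 are shared with HEATR4 on the opposite strand.

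Among 30 jumonji proteins in the list, 7 had an entry, 4 higher and 3 lower at 1% oxygen, against 56.7% higher and 43.3% lower over the table. The median log2 fold change of the 7 was 1.19, against 1.11 over all 2675 entries. Beside the 4 described, RIOX2, the second ribosomal oxygenase, fell by 1.26 on the log2 scale of normalized counts (SE 0.20), which is 2.40-fold. Its mean FPKM, which also carries the authors' length per gene, was 8.19 at 20% and 1.83 at 1% oxygen, a 4.47-fold fall. The 2 scales thus differ for RIOX2, and the cause was not tested. HSPBAP1, which encodes a jumonji protein that binds a small heat shock protein, fell by 1.10 (SE 0.23), and JMJD7, a lysyl hydroxylase gene, rose 2.28-fold (log2 fold change 1.19, SE 0.27). All 3 passed the edgeR quasi-likelihood test (highest adjusted p = 0.00297, for JMJD7). JMJD7 shares 80.1% of its exon bases with the read-through gene JMJD7-PLA2G4B on the same strand, and RIOX2 27.6% with CRYBG3 on the opposite strand, so their counts are less certain. The other 23 jumonji genes are not analysed here. The ribosomal proteins RPL8 and RPL27A, the known substrates of RIOX1 and RIOX2, are 0 of 2 in the table.

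Of 35 other 2-oxoglutarate dioxygenases, 6 had an entry, 4 higher and 2 lower, with a median log2 fold change of 1.84, against 56.7% higher and 43.3% lower and a median of 1.11 over the table. The 4 that rose encode collagen hydroxylases. P4HA1 and P4HA2, catalytic subunits of collagen prolyl hydroxylase, rose 8.52-fold and 3.95-fold, the lysyl hydroxylase gene PLOD2 rose 5.55-fold and the prolyl 3-hydroxylase gene P3H2 rose 3.26-fold. The 2 that fell were OGFOD1, which hydroxylates a small-subunit ribosomal protein and had a log2 fold change of -1.49, and the DNA repair demethylase gene ALKBH2, at -1.07. Highest of the 6 in adjusted p was ALKBH2 (edgeR quasi-likelihood, adjusted p = 0.00307).

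**Figure D5:**
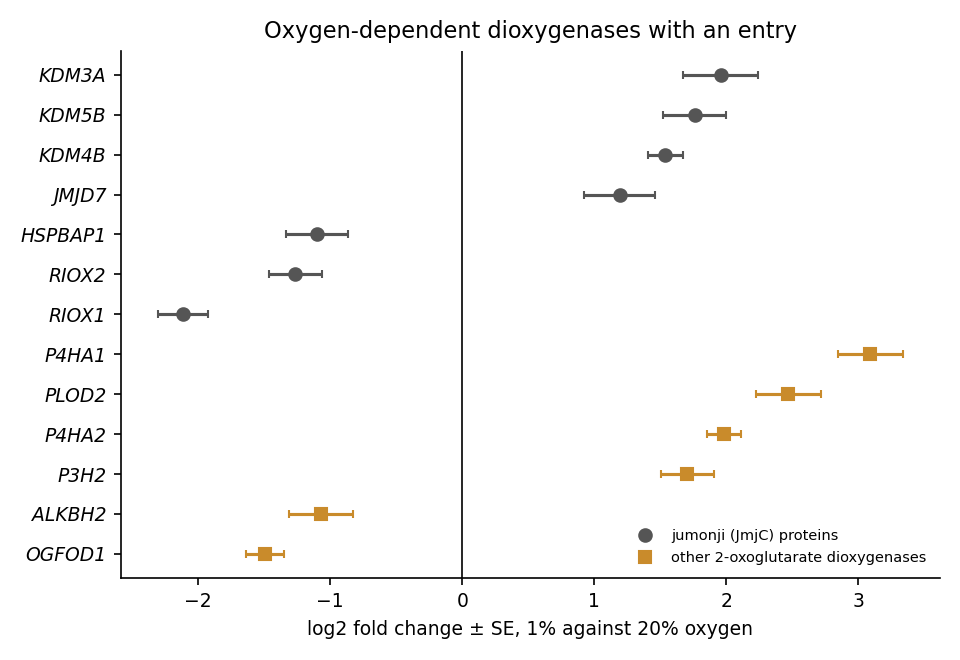
Log2 fold change ± SE (1% against 20% oxygen) for the 7 jumonji proteins (circles) and the 6 other 2-oxoglutarate dioxygenases (squares) with an entry. KDM3A, KDM5B, KDM4B and JMJD7 lie right of 0 and HSPBAP1, RIOX2 and RIOX1 left of it, and 4 of the 6 squares lie right of 0.

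CITED2 was the 1 entry among 12 members of the CITED family and partners of CITED2, a list that includes the coactivator genes EP300 and CREBBP. Of 14 genes for HIF subunits and their degradation, 0 had an entry, and of the 2 flavin-dependent histone demethylases also 0. Of 19 methyltransferases of the histone H3 lysines that these demethylases act on, 1 had an entry. It was SUV39H2, which methylates the histone H3 lysine that KDM3A and KDM4B act on. These enzymes need not act on the same methylated form of that lysine. SUV39H2 fell by 1.60 on the log2 scale (SE 0.18, edgeR quasi-likelihood, adjusted p = 0.000113). SUV39H2 went from 8.51 to 2.22 mean FPKM while KDM3A went from 6.29 to 19.6 and KDM4B from 5.32 to 13.0.

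Of 22 genes whose enzymes make or use 2-oxoglutarate, succinate or fumarate, which are the co-substrate and known inhibitors of jumonji enzymes, 6 had an entry, 1 higher and 5 lower, with a median log2 fold change of -1.25, against 56.7% higher and 43.3% lower and a median of 1.11 over the table. Over the lower entries alone the median was -1.36. As with the other lists, the choice was made with earlier results of these data known. The mitochondrial isocitrate dehydrogenase gene IDH2 rose 2.63-fold. IDH3A, another isocitrate dehydrogenase subunit, fell by 1.70 on the log2 scale, and the aminotransferase gene GOT2 by 1.36. IDH3A shares 38.9% of its exon bases, mostly with ACSBG1 on the opposite strand.

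RIOX1 acts in the nucleolus, and 20 of 30 genes for nucleolar and 60S assembly factors had an entry, 0 higher and 20 lower, against 43.3% lower over the table. This list too was chosen with earlier results of these data known, so its count is no independent check. The median log2 fold change of the 20 was -1.45, against -1.36 over all lower entries. RIOX1 at -2.11 was lower than 19 of the 20. RRS1 fell by 2.94, the RNA polymerase I subunit gene POLR1B by 2.10, the helicase gene DDX21 by 2.03 and the rRNA methyltransferase gene NOP2 by 2.03. NOP2 shares 54.4% of its exon bases with another gene on the same strand.

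The entries most like each gene were those with the smallest root mean square (RMS) difference in centred log2 normalized counts over the 6 libraries. For CITED2 they were ATP10A (RMS 0.08), NFIL3 (0.09) and PYGL (0.10). For KDM3A they were PDK1 (0.08), MEF2C (0.09) and TMEM154 (0.10), and for KDM5B they were HBP1 (0.05), TMEM154 (0.09) and LIMCH1 (0.09). The low values of normoxia replicate 1 and hypoxia replicate 2 recur in these 5 entries, which follows from choosing them by likeness over the same libraries. HBP1, for example, had 892, 927 and 1141 normalized counts in normoxia replicates 1 to 3 and 3881, 2387 and 4109 in hypoxia replicates 1 to 3. For KDM4B they were PIM1 (0.04), CA12 (0.07) and RAPGEF1 (0.08), and for RIOX1 they were RPP40 (0.12), PNO1 (0.12) and ALDH1B1 (0.13).

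Among the 5 genes themselves, KDM3A and KDM5B were closest, at an RMS of 0.18, followed by KDM4B and KDM5B at 0.24 and KDM3A and KDM4B at 0.36. CITED2 differed from the demethylase genes by 0.66 to 0.80 and from RIOX1 by 2.63.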

How the data were processed

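Messenger RNA of 6 Hep3B libraries, 3 per oxygen level, was analysed from 1 deposited table. For the aligner, counter, annotation, build and use of strand: not given in the sources used here. Read counts were deposited by the authors without normalization, per the file headers and values. FPKM values, per length and library total, and the log2 fold changes and adjusted p-values (FDR) are the authors', per the file headers. Columns were matched to titles by oxygen level and number. The genes and lists were chosen with earlier results of these data known. Named genes are the 5 genes, all entries of the jumonji, dioxygenase, HIF and CITED lists, up to 4 of the largest changes in other lists, and 3 nearest entries per gene with a symbol and means of at least 50 normalized counts in each group.

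Library scales were fitted to the authors' log2 fold changes over 1442 entries with over 200 counts in each library (median absolute residual 0.000209). Normoxia replicates 1 to 3 had scales of 1.06, 1.02 and 1.11, and hypoxia replicates 1 to 3 had 0.994, 0.844 and 0.997. The scale is thus the authors' own. Left out were 6 entries whose deposited log2 fold change lay over 1 from that of their counts. Tests used edgeR 4.0.16 (quasi-likelihood, filterByExpr, which removed 0 entries, Benjamini-Hochberg over 2675 entries). The test was also run on simulated data. These held mostly unchanged entries, unlike this table of selected ones, so that run does not bear on the calls here. SE is the size of the log2 fold change divided by the root of the F statistic. Common dispersion was 0.0493. Alternatives used DESeq2 1.42.0 and limma 3.58.1. Libraries within a group differed by over 13 in chi-square per degree of freedom, so none was a copy. Exon sharing is the share of a gene's exon bases that lie in exons of other GENCODE 29 genes. A gene that the naming rule also picks is not reported here.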

Additional observations from a re-analysis of the deposited data

How the results depend on the processing

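All 5 genes kept their direction and passed at an adjusted p of 0.05 under each alternative tried: 3 other scalings, DESeq2's Wald test, no filter, a replicate block, limma on log2(FPKM + 1) and log2(FPKM + 0.1), and each library left out. Under these alternatives 2154 (DESeq2 size factors) to 2675 of the 2675 entries passed, so 5 of 5 is near the background of this table. Log2 fold changes ranged from 2.36 to 3.23 for CITED2, 1.16 to 2.17 for KDM3A, 0.76 to 1.60 for KDM4B, 0.97 to 1.96 for KDM5B and -2.89 to -1.82 for RIOX1. The lowest of the 4 rises all came with DESeq2 size factors over the listed entries, which shift every entry. With single libraries left out the ranges were 3.06 to 3.23, 1.75 to 2.17, 1.49 to 1.60, 1.64 to 1.96 and -2.23 to -2.004. Counts of each list were within 1.5 times under TMM. From FPKM, the change in the log2 ratio of KDM3A to KDM5B was -0.13 and that of CITED2 to KDM5B 1.14, and the other ratio changes moved by less than the spread between replicates.

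The labels give both groups the numbers 1 to 3, but same-numbered libraries did not consistently deviate together. Their correlations were -0.392, -0.148 and 0.485 for replicates 1 to 3, across 2563 entries, which are not independent replicates. Normoxia replicate 3 correlated best with hypoxia replicate 3, but normoxia replicate 1 did so with hypoxia replicate 2 (0.613). The numbers were not taken to pair libraries. With the replicate block the log2 fold changes were 3.13 for CITED2, 1.96 for KDM3A, 1.53 for KDM4B, 1.74 for KDM5B and -2.12 for RIOX1, and the number of entries called stayed at 2675.

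Since the table holds selected entries, a gene without an entry can have changed little, varied widely or been low. Messenger RNA says nothing of enzyme activity at 1% oxygen.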
